A study of Mus musculus with 26 samples.

Results

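The genes described here are 10 members of glycolysis in mouse embryonic stem cells (ESCs): Slc2a1, Slc2a3, Hk2, Pfkl, Pfkp, Aldoa, Pgk1, Eno1, Pkm and Ldha. They were chosen by name, and their symbols were looked up in a table of 55291 genes. All 10 were present, and all 10 were among the 20953 genes with enough reads to be tested. The data are poly(A) RNA-seq of R1 ESCs kept in LIF, in 26 libraries that fall into 13 groups of 2 replicates, from a study of how the transcription factor DUX forms condensates that switch on the 2-cell (2C) programme.

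Untreated cells (ESC) and cells given the solvent (DMSO) were the controls. Retinoic acid (RA) was given at 0.53 µM for 48 h, and pladienolide B (PlaB), an inhibitor of the splicing factor SF3B1, at 4 nM for 4 days. Doxycycline at 4 µg/mL for 24 h was used to overexpress Dux (Dux OE), its condensation-defective form (DuxR70A OE) or Zscan4 (Zscan4 OE). Dux was knocked down by shRNA (Dux KD) under RA, PlaB or Zscan4 OE. The super-enhancer at the Tdpoz genes was deleted with CRISPR-Cas9 (SE KO), and these cells were studied under RA, PlaB or Dux OE. None of the 26 libraries is labelled as knockdown or knockout cells without a treatment, or as cells with a control shRNA. What the knockdown or knockout does without the treatment therefore cannot be told apart from what it does under it. Nor can effects of the shRNA vector or of the clone be told apart from those of losing Dux or the super-enhancer. No group was given doxycycline without a transgene. Against ESC or DMSO, the effect of doxycycline therefore cannot be told apart from that of the transgene. The sources used here do not say which shRNA was sequenced, how many SE KO clones there were or how long DMSO was given. The first SE KO RA library carries a wild-type genotype label but an SE KO title, and was placed by its title. Both Dux KD Zscan4 OE libraries carry the treatment label "no" and no time.

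Glycolysis is the cytosolic pathway that splits glucose into pyruvate with a net gain of ATP and NADH. Glucose enters through facilitative transporters, hexokinase traps it by phosphorylation, phosphofructokinase commits it to the pathway, and lactate dehydrogenase regenerates NAD+ by reducing pyruvate to lactate. Pluripotent cells are known for high glycolytic flux, and many glycolysis genes are known targets of the hypoxia-inducible factor HIF-1 and of MYC.

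The library totals ranged from 14401452 to 39402840 reads, so 3 reads corresponded to at most 0.226 CPM, the read count scaled to the size of the library, and each of the 10 genes was far above this floor in every library. The reads on the 10 genes together made up 0.452% to 2.42% of a library. Duxf3, the gene counted for Dux, had 9.24 and 8.20 CPM in the replicates of PlaB but 0.0589 and 0 CPM (1 and 0 reads) in Dux KD PlaB. It had 2.16 and 2.75 CPM in RA against 0.918 and 0.353 CPM in Dux KD RA, and 1.75 and 0.923 CPM in Zscan4 OE against 0.0649 and 0 CPM in Dux KD Zscan4 OE. Under overexpression it had 4.01 and 3.24 CPM in Dux OE, but no read in either library labelled DuxR70A OE. The Dux OE values lay below those of PlaB, a group without a transgene, so whether their reads came from the transgene cannot be told. The counts thus show neither the wild-type nor the mutant transgene, and both groups are named by their label only. Replicates stood furthest apart in SE KO PlaB and Dux KD Zscan4 OE, where chi-square per degree of freedom reached 30.2 and 26.1, but was at most 9.81 in the other 11 groups. The labels do not say whether replicates came from separate cultures, so the p-values measure only the spread between these samples. For each gene that spread was estimated in 1 model over all 13 groups. It can therefore be understated for SE KO PlaB and Dux KD Zscan4 OE, and their p-values can be too small.

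Levels are given as CPM scaled by the trimmed mean of M values (TMM), and as CPM per kb of exon where genes are compared. The values rest on reads that the authors counted per gene, so splice forms such as those of Pkm were not told apart. In bulk RNA, a lower level in every cell and a smaller share of cells with a high level cannot be told apart. In ESC the most abundant of the 10 genes per length was Pkm, at 867 CPM per kb, and the least abundant was Pfkp, at 28.5 CPM per kb. The isozymes differed in the same scale: Pfkl stood at 40.9 CPM per kb beside Pfkp, and Slc2a3 at 209.9 beside 135 for Slc2a1. The order of Pfkl and Pfkp rests on the exon lengths used, 6.68 kb for Pfkl and 13.4 kb for Pfkp. Without division by length Pfkp stood higher in ESC, at 382 CPM beside 273 CPM for Pfkl, and Hk2 was lowest, at 269 CPM. These are levels in 1 group and were not tested against each other.

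**Figure D1:**
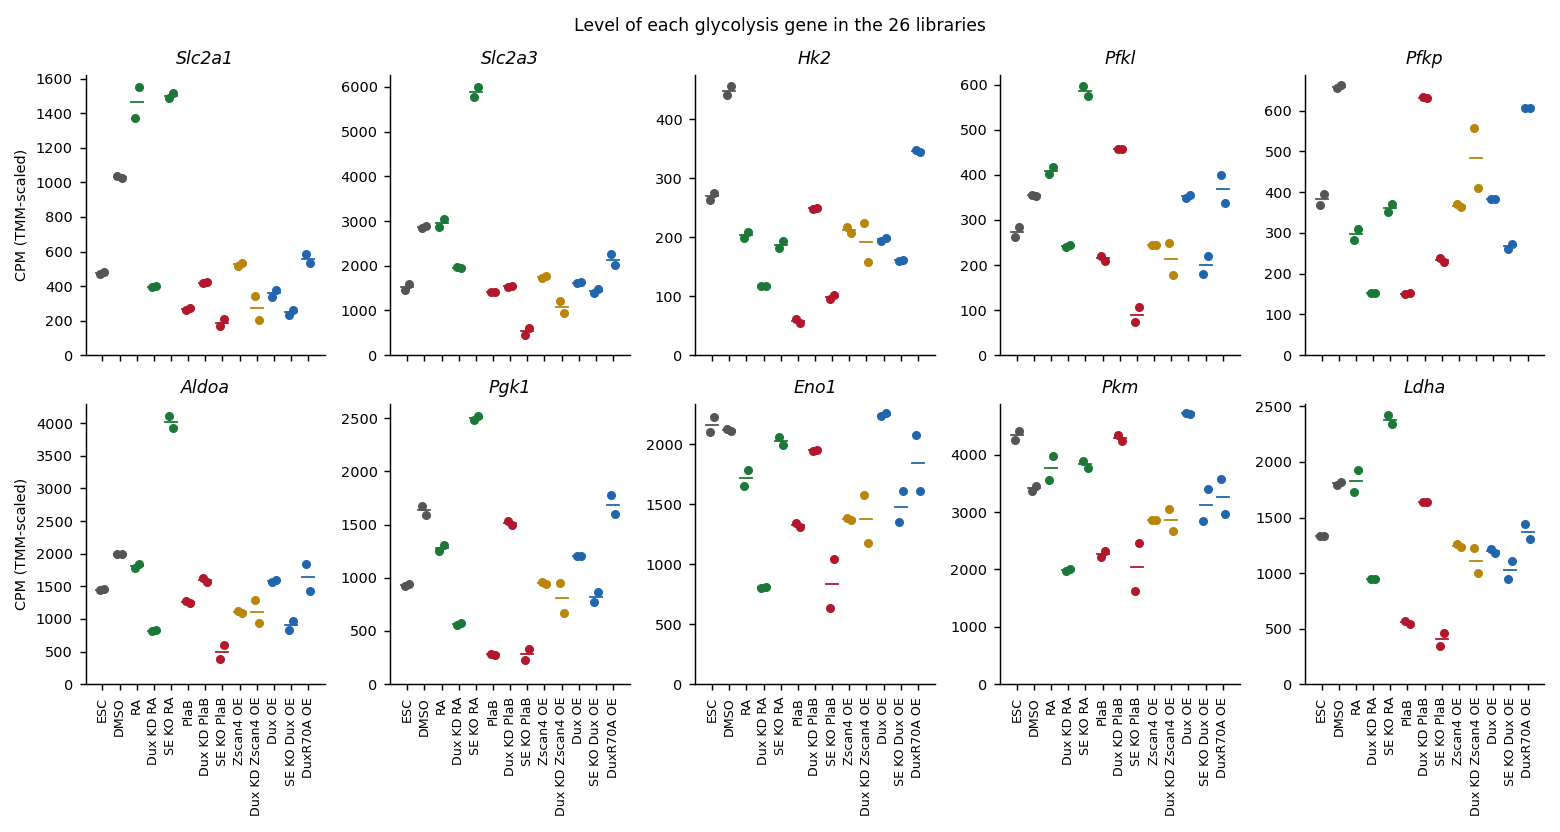
CPM (TMM-scaled, linear axis from 0) of each of the 10 genes in the 26 libraries. Points are the 2 replicates of a group, horizontal lines are their mean, and colours mark the controls (grey), RA (green), PlaB (red), Zscan4 OE (ochre) and Dux OE groups (blue). In SE KO RA 6 of the 10 genes had their highest mean (Slc2a1, Slc2a3, Pfkl, Aldoa, Pgk1 and Ldha), and 8 of the 10 genes were lowest in PlaB or SE KO PlaB.

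Summed over the 10 genes, the level was highest in SE KO RA, at 5478 and 5423 CPM per kb in the replicates, and lowest in SE KO PlaB, at 912 and 1333 CPM per kb. Between these ends stood DMSO (3761 and 3751) and RA (3479.7 and 3776), whose replicates overlapped. Then came Dux KD PlaB (3336 and 3286), DuxR70A OE (3467 and 2967) and Dux OE (3122 and 3133), where the spread of the DuxR70A OE pair covered both of its neighbours and the upper ESC library. ESC followed at 2891 and 2981 CPM per kb and Zscan4 OE at 2425 and 2406 CPM per kb. SE KO Dux OE (2006 and 2324) and Dux KD Zscan4 OE (2431 and 1872) overlapped each other, and the latter also overlapped Zscan4 OE. Dux KD RA stood at 1748 and 1767 and PlaB at 1663 and 1654 CPM per kb, and these pairs did not overlap. The 3 RA groups took ranks 1, 3 and 11 of the 13, and the 3 PlaB groups ranks 4, 12 and 13.

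**Figure D2:**
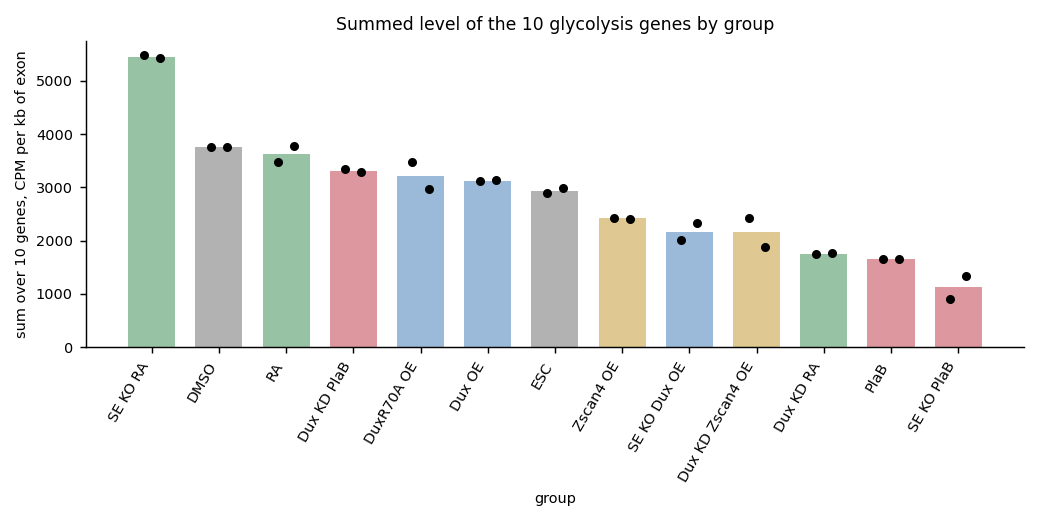
Sum of the 10 genes in CPM per kb of exon for each group, in falling order. Bars are means of 2 replicates and points the replicates; the highest pair is SE KO RA (5478 and 5423) and the lowest SE KO PlaB (912 and 1333).

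The genes varied to different degrees over the 13 group means. Slc2a3, the neuronal-type glucose transporter GLUT3, spanned 11.1-fold from SE KO PlaB to SE KO RA. Pgk1 spanned 8.96-fold, Aldoa 8.09-fold, Slc2a1 8.00-fold, Hk2 7.78-fold, Pfkl 6.51-fold, Ldha 5.87-fold and Pfkp 4.37-fold. Eno1 and Pkm, an enolase and the pyruvate kinase that act late in the pathway, spanned only 2.79-fold and 2.38-fold. Pearson's r between pairs of the genes over the 13 group means of log2 CPM ranged from 0.228 (Slc2a3 with Pfkp) to 0.956 (Pgk1 with Ldha), with a median of 0.755 over 45 pairs. The groups share libraries' normalization and treatments, so these correlations are descriptions only. The genes outside the list whose 13 group means followed the mean profile of the 10 most closely, among 13360 candidates, were Tpi1 (r = 0.949), the glycolytic enzyme triosephosphate isomerase, then Zfp821 (0.929), Camkv (0.918), Nsdhl (0.907) and Egln3 (0.906), an oxygen-sensing prolyl hydroxylase.

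The genes lie on 7 chromosomes of the mouse (mm10, positions as in the table). The transporter genes are Slc2a1 at chr4:119108711-119137983 and Slc2a3 at chr6:122727809-122801640. The kinases of the upper pathway are Hk2 at chr6:82725025-82774454, Pfkl at chr10:77986947-78010083 and Pfkp at chr13:6579768-6648777. Aldoa is at chr7:126795234-126809108 and Pgk1 at chrX:106187100-106203699. Eno1 is at chr4:150236721-150248879, Pkm at chr9:59656368-59679375 and Ldha at chr7:46841475-46855627. Some of these genes share sequence with others in the table. Eno1b, whose transcript matches that of Eno1 over 1736 bases at 99.5% identity, held 27.6% as many reads as Eno1, and its own values are given in part of the comparisons. The processed pseudogene Gm4735, which matches Eno1 over 1302 bases at 99.6% identity, held 4.75% as many reads. The exons of Pfkp share 748 bases with Pitrm1, which lies on the opposite strand and held 30.5% as many reads. Whether reads were counted by strand is not given in the sources used here, so part of the reads of Pfkp and Pitrm1 cannot be told apart. Copies of Aldoa, Pgk1, Pkm and Ldha held 0.0531% to 2.26% as many reads as the gene, and for Slc2a1, Slc2a3, Hk2 and Pfkl no other transcript matched over 200 bases at 90% identity.

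The 2 control groups were compared first, since each serves other comparisons. DMSO cells held more of most glycolysis genes than untreated ESCs. Slc2a1, the basal glucose transporter GLUT1, stood at 1037 and 1023 CPM in DMSO and 468 and 481 CPM in ESC. Both DMSO libraries were above both ESC libraries, and the log2 fold change was 1.12 ± 0.138, edgeR adjusted p = 2.20e-07. All changes are on the log2 scale, with the standard error (SE) after the sign ±. The SE was derived from the edgeR test, as the absolute log2 fold change divided by the square root of its F statistic. Slc2a3 rose from 1460.3 and 1581 to 2849 and 2883 CPM, a log2 fold change of 0.91 ± 0.102, edgeR adjusted p = 3.93e-08. Hk2, the inducible hexokinase, was at 263 and 275 CPM in ESC and 441 and 456 CPM in DMSO, and Pgk1, which makes the first ATP of the pathway, at 918 and 939.6 and 1673 and 1595 CPM, with log2 fold changes of 0.74 and 0.81. Neither pair of groups overlapped. A gene was called where its adjusted p-value was under 0.05 and its log2 fold change was 1 or more in either direction. By this rule 1 of the 10 genes, Slc2a1, was called higher, where 8.32% of all tested genes were. By the adjusted p-value alone, 8 of the 10 were higher, against 21.2% of all genes, and 1, Pkm (-0.35), was lower, against 22.4%. The other genes that were higher were Pfkp (0.79), Aldoa (0.46), Ldha (0.44) and Pfkl (0.38). Leaving out 1 library left 7 to 8 of the 9 past the adjusted p-value, and Pkm passed in none of these fits. Eno1 differed by -0.031 with edgeR adjusted p = 0.913 and its copy Eno1b by -0.021.

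Known HIF-1 targets outside glycolysis were also higher in DMSO. Of 13 such genes, 11 were called higher in DMSO than in ESC and 0 lower, against 8.32% higher and 7.91% lower over all genes, with a median log2 fold change of 1.5. Bnip3, a mitophagy receptor, rose by 2.70 ± 0.126, edgeR adjusted p = 7.47e-15. Vegfa, the angiogenic growth factor, rose by 2.21 ± 0.142, edgeR adjusted p = 2.93e-12, and Egln3 by 2.15 ± 0.202, edgeR adjusted p = 2.32e-09. Of 15 other glycolytic enzymes, 2 were called higher, Eno2 (2.25) and the liver-type pyruvate kinase gene Pklr (1.04), and 0 lower. Mycn, a MYC family gene, was also called higher, at 1.60, while Myc (-1.03) was called lower. What set these 2 control groups apart was not tested, and the choice of control changes several results below.

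**Figure D3:**
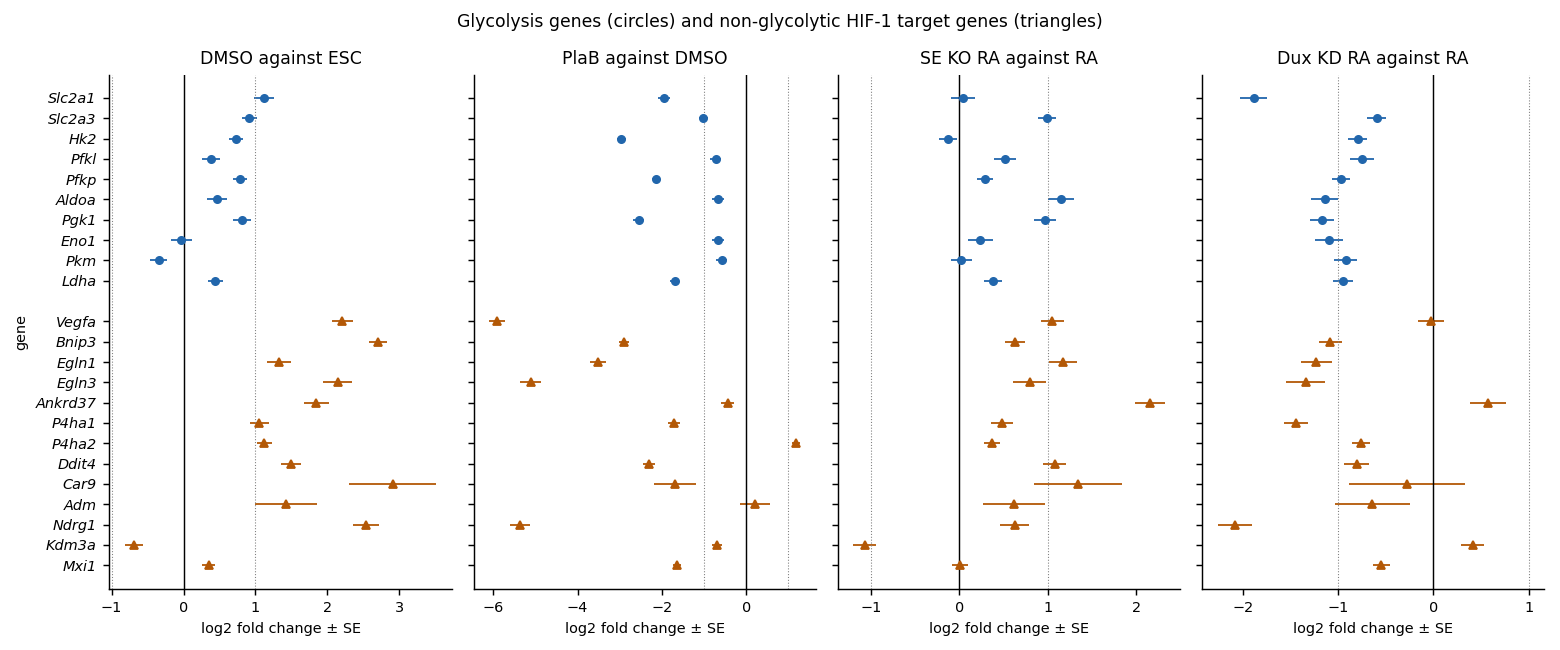
Log2 fold change (first minus second group, error bars ± SE from edgeR) of the 10 glycolysis genes (blue circles) and 13 non-glycolytic HIF-1 target genes (orange triangles) in 4 comparisons. Dotted lines mark a log2 fold change of 1 in either direction, and each panel has its own horizontal axis. In DMSO against ESC 11 of the 13 targets were called higher, and in PlaB against DMSO 9 were called lower.

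Between RA and DMSO some glycolysis genes were higher and others lower. Against DMSO, 2 of the 10 genes were called lower, where 10.4% of all tested genes were, and 0 were called higher, where 20.6% were. Hk2 stood at 441 and 456 CPM in DMSO and 199 and 208 CPM in RA, with no overlap, a log2 fold change of -1.14 ± 0.0981, edgeR adjusted p = 1.33e-10. Pfkp, the platelet-type phosphofructokinase, fell from 655 and 663 to 283 and 309 CPM, a log2 fold change of -1.15 ± 0.0918, edgeR adjusted p = 2.82e-11. The overlapping gene Pitrm1 also fell by 0.73 ± 0.0853, edgeR adjusted p = 3.79e-08, and its part in the fall of Pfkp was not tested. Slc2a1 was at 1372 and 1556 CPM in RA, above both DMSO libraries, and rose by 0.51 ± 0.136, edgeR adjusted p = 0.00227. Pgk1 fell by 0.35 ± 0.13, edgeR adjusted p = 0.0180. With no fold threshold, 1 of the 10 genes was higher, against 32.3% of all genes, and 3 were lower, against 26.6%. None of these counts stands clearly above the share over all genes. The other genes did not pass: Pfkl (0.21), Pkm (0.14), Slc2a3 (0.044), Ldha (0.018), Aldoa (-0.14) and Eno1 (-0.30). Leaving out 1 library left 3 to 4 genes past the adjusted p-value. Ldha, at 1734 and 1926 CPM in RA and 1794 and 1821 CPM in DMSO, overlapped between the groups.

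The RA result depended on the control and on the scaling. Against untreated ESCs the log2 fold changes of Hk2 and Pfkp shrank to -0.40 and -0.37, that of Slc2a1 grew to 1.63 and was called, and that of Pgk1 turned to 0.46. With scaling by library size alone, Hk2 and Pfkp stood at -0.94 and -0.96 and neither was called. That scaling moved the median of all genes from 0.10 to 0.30 and the share of calls that were higher from 66.5% to 76.8%. Around these genes, Pdk1, a kinase that shuts off pyruvate dehydrogenase, fell by 1.94 ± 0.0756, edgeR adjusted p = 1.83e-17, as 1 of 3 genes called lower and 0 called higher among 9 of that complex and its kinases. Of the 9 HIF and MYC regulators 3 were called lower, Mycn (-4.16), Myc (-2.66) and Epas1 (-1.15). Of the 13 HIF-1 targets 3 were called lower and 2 higher, and of the 15 other enzymes 1, Pgam2 (1.47), was called higher. Of the 7 ESC markers 6 were called lower, with sums of 3441 to 3523 CPM in RA and 6847 to 7069.7 CPM in DMSO. All 8 genes of the 2C-like state were called higher (466 to 536 and 3.07 to 5.22 CPM), as were 6 of 7 primitive endoderm markers (99.7 to 102 and 8.83 to 10.7 CPM). Among tested markers 2 of 5 of trophectoderm (64.5 to 68.6 and 93.1 to 95.8 CPM) and 2 of 4 of fibroblasts (51.5 to 60.4 and 34.1 to 34.9 CPM) were called higher. Mitochondrially encoded reads took 3.32% to 3.72% of the RA libraries and 3.11% to 3.13% of the DMSO libraries. The part of these values in the changes was not tested.

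All 10 genes were lower in PlaB than in DMSO. Of the 10, 6 were called lower, where 26.6% of all tested genes were, and at the adjusted p-value alone 10 were, against 35.4%. The median log2 fold change of the 10 was -1.36, beside 0.22 over all genes. Hk2 fell the most, from 441 and 456 CPM in DMSO to 60.9 and 54.3 CPM in PlaB, a log2 fold change of -2.96 ± 0.106, edgeR adjusted p = 2.15e-19. Pgk1 stood at 287 and 273 CPM in PlaB and 1673 and 1595 CPM in DMSO, a log2 fold change of -2.55 ± 0.133, edgeR adjusted p = 8.35e-16. None of these pairs of groups overlapped.

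Pfkp fell from 655 and 663 to 150.3 and 151 CPM, a log2 fold change of -2.13 ± 0.0949, edgeR adjusted p = 2.67e-17, while Pitrm1 fell by 1.56 ± 0.0881, edgeR adjusted p = 4.59e-15. Slc2a1 fell from 1037 and 1023 to 261 and 270.4 CPM, a log2 fold change of -1.95 ± 0.142, edgeR adjusted p = 1.01e-12. Ldha, which makes lactate, fell from 1794 and 1821 to 569 and 546 CPM, a log2 fold change of -1.70 ± 0.107, edgeR adjusted p = 5.07e-14. In each of these genes both PlaB libraries were below both DMSO libraries. Slc2a3 fell less, from 2849 and 2883 to 1418 and 1409 CPM, and its log2 fold change of -1.02 ± 0.102, edgeR adjusted p = 7.90e-10 just passed the fold threshold. It moved to -0.86 with median-of-ratios scaling (RLE) and to -0.76 with library size alone, while the median of all genes moved from 0.22 to 0.38 and 0.48. The 4 genes under the threshold were Pfkl (-0.72), Eno1 (-0.68), Aldoa (-0.66) and Pkm (-0.58). Eno1b, the near-identical copy of Eno1, differed by -0.11 with edgeR adjusted p = 0.521.

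The size of the fall depended on the control. Against untreated ESCs 4 of the 6 genes were still called lower, Hk2 (-2.22), Pgk1 (-1.73), Pfkp (-1.34) and Ldha (-1.25). Slc2a1 stood at -0.84 and Slc2a3 at -0.10 on the same scale. The genes under the fold threshold stood at -0.93 (Pkm), -0.71 (Eno1), -0.34 (Pfkl) and -0.20 (Aldoa). Slc2a3 and Aldoa did not pass the test against ESC, with edgeR adjusted p = 0.358 and edgeR adjusted p = 0.209. Mitochondrially encoded reads took 1.40% to 1.56% of the PlaB libraries and 3.11% to 3.13% of the DMSO libraries. The sum of 8 genes of the 2C-like state (Zscan4c, Duxf3 and others) was 7179 to 7245 CPM in PlaB and 3.07 to 5.22 CPM in DMSO. That of 7 ESC markers (Pou5f1, Nanog, Sox2 and others) was 2266 to 2297 and 6847 to 7069.7 CPM. Of 7 primitive endoderm markers, 4 were called higher, with sums of 32.7 to 37.8 and 8.83 to 10.7 CPM. Of 5 tested trophectoderm markers, the list summing to 43.0 to 57.5 and 93.1 to 95.8 CPM, 3 were called higher and 2 lower. Of 4 tested fibroblast markers, the list summing to 9.77 to 12.1 and 34.1 to 34.9 CPM, 1 was called in each direction. The part of these markers in the fall of the glycolysis genes was not tested.

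Of 15 other glycolytic enzymes 6 were called lower with PlaB and 3 higher. Over all tested genes 26.6% were called lower and 32.3% higher, and the counts of the lists that follow stand beside these shares. Gapdh, the dehydrogenase often used as a reference gene, fell from 1134 and 907 to 26.9 and 27.6 CPM, a log2 fold change of -5.22 ± 0.211, edgeR adjusted p = 2.89e-18. Tpi1 fell by 3.01 ± 0.147, edgeR adjusted p = 2.00e-16 and the housekeeping hexokinase Hk1 fell by 2.80 ± 0.144, edgeR adjusted p = 5.81e-16. The muscle-type enolase Eno3 rose by 1.47 ± 0.143, edgeR adjusted p = 4.86e-10. Of 6 genes of lactate and pyruvate transport, the plasma membrane lactate carriers Slc16a1 (-2.76) and Slc16a3 (-2.86) were called lower. Their chaperone Bsg (2.03) and both subunits of the mitochondrial pyruvate carrier, Mpc1 (3.19) and Mpc2 (2.34), were called higher. Mpc1 stood at 33.2 and 30.4 CPM in PlaB and 3.40 and 3.56 CPM in DMSO.

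Among 5 regulators of phosphofructokinase, Pfkfb3 (-3.55), Pfkfb2 (-1.27) and Pfkfb1 (-1.12) were called lower and Pfkfb4 (2.35) higher. Of the 9 genes of pyruvate dehydrogenase and its kinases 2 were called lower, among them Pdk1 (-3.84), and 1 higher. Of 7 pentose phosphate genes 4 were called lower, among them G6pdx (-2.09), the entry enzyme, and 1 higher. Of 6 tested gluconeogenic genes 2 were called in each direction. Of the 13 non-glycolytic HIF-1 targets 9 were called lower, among them Vegfa (-5.90) and Ndrg1 (-5.36), and 1 higher. Of the 9 HIF and MYC regulators 6 were called lower, among them Hif1a (-1.53) and Mycn (-3.83), and 0 higher.

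Upstream sequences are shown for Hk2, Pgk1 and Ldha, which fell together in PlaB and whose upstream bases overlap no exon of GENCODE M21. They are the 250 bases before the start in RefSeq (GRCm38.p6), 5′ to 3′ in the direction of the gene, from chr6:82774455-82774704 on the minus strand, chrX:106186850-106187099 on the plus strand and chr7:46845554-46845803 on the plus strand. Capitals mark ACGTG or GCGTG, the core of the HIF response element, on either strand.
Hk2: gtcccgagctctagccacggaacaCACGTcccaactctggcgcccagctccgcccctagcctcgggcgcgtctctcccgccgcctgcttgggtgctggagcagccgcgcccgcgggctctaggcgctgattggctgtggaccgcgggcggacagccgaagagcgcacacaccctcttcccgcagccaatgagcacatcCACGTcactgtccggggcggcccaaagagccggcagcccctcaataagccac
Pgk1: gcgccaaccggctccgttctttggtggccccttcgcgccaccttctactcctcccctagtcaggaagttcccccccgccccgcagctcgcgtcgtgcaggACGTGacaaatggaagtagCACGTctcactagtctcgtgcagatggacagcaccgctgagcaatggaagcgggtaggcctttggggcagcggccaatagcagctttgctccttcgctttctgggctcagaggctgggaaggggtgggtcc
Ldha: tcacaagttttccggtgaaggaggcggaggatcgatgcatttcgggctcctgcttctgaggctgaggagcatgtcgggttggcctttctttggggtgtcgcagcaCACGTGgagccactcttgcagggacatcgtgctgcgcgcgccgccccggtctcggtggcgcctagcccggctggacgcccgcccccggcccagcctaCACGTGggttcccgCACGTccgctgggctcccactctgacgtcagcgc
The search covered both strands of 300 bases, from 250 before the start to 50 after it, of 9 of the 10 genes. No such window was at hand for Slc2a3. Where RefSeq gives several starts, as for Aldoa (3), Eno1 (3), Pkm (2) and Ldha (2), the most upstream was taken. At least 1 ACGTG or GCGTG was found in 7 of the 9, and in 43.8% of 27025 windows of the same length, and ACGTG alone in 4 of the 9 and 19.6% of all. The windows taken for Aldoa and Pkm held neither, but windows at other starts of both genes did. With any start counted, a choice made after seeing the data, 9 of the 9 genes and 46.7% of all held at least 1. The E-box CACGTG, which contains ACGTG and so overlaps it, occurred in 1 of the 9, Ldha, and in 7.24% of all windows. A match of these letters is not evidence of binding. Both cores hold the pair CG, and the upstream bases of the 9 genes were 50.4% (Aldoa) to 69.6% (Hk2) G or C. The 27025 windows were not matched for base composition.

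Dux KD under RA lowered all 10 glycolysis genes. Against RA alone, 4 of the 10 genes were called lower, where 4.53% of all tested genes were (and 6.41% higher), and all 10 were lower at the adjusted p-value alone, against 19.2%. The median of the 10 was -0.96, beside 0.015 over all genes. Slc2a1 fell from 1372 and 1556 CPM in RA to 393 and 399 CPM in Dux KD RA, so that the log2 fold change was -1.89 ± 0.141, edgeR adjusted p = 1.07e-10. Pgk1 fell from 1252 and 1310.4 to 559.7 and 577 CPM, a log2 fold change of -1.17 ± 0.127, edgeR adjusted p = 6.09e-08. Aldoa, the aldolase that cleaves fructose bisphosphate, fell from 1779 and 1844 to 821 and 824 CPM, a log2 fold change of -1.14 ± 0.142, edgeR adjusted p = 5.44e-07. In all 3 genes both Dux KD RA libraries were below both RA libraries.

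Eno1 fell from 1654 and 1780.4 to 798 and 813 CPM, a log2 fold change of -1.09 ± 0.147, edgeR adjusted p = 1.66e-06, and its copy Eno1b fell by 1.28 ± 0.165, edgeR adjusted p = 8.76e-07. Pfkp (-0.97), Ldha (-0.95) and Pkm (-0.92) lay just under the fold threshold. Without the first RA library these 3 passed it, at -1.03, -1.03 and -1.0, and 7 genes were called. Hk2 fell by 0.79 ± 0.0993, edgeR adjusted p = 5.48e-07, Pfkl, the liver-type phosphofructokinase, fell by 0.75 ± 0.127, edgeR adjusted p = 3.30e-05, and Slc2a3 fell by 0.60 ± 0.101, edgeR adjusted p = 3.81e-05. Of the 15 other enzymes 5 were called lower and 0 higher, among them Gapdh (-1.23), the isomerase gene Gpi1 (-1.20) and Ldhb (-1.62), the heart-type lactate dehydrogenase subunit. The lactate exporter Slc16a3 fell by 1.79 ± 0.163, edgeR adjusted p = 3.53e-09. Of the 13 HIF-1 targets 5 were called lower and 0 higher. The ESC markers summed to 3554 to 3565 CPM in Dux KD RA and 3441 to 3523 CPM in RA, the 2C-like genes to 349 to 364 and 466 to 536 CPM, and primitive endoderm markers to 116 to 117 and 99.7 to 102 CPM. Trophectoderm markers summed to 53.7 to 54.9 and 64.5 to 68.6 CPM, and fibroblast markers to 25.1 to 25.9 and 51.5 to 60.4 CPM. Their part in the fall was not tested.

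Dux KD under PlaB had the opposite sign. Against PlaB alone, 5 of the 10 genes were called higher, where 26.1% of all tested genes were (and 28.8% lower), and 9 were higher at the adjusted p-value alone, against 35.5%. The median of the 10 was 1.0, beside -0.14 over all genes. Pgk1 rose from 287 and 273 CPM in PlaB to 1532 and 1493 CPM in Dux KD PlaB, a log2 fold change of 2.43 ± 0.132, edgeR adjusted p = 2.38e-15. Hk2 rose from 60.9 and 54.3 to 248 and 250.1 CPM, a log2 fold change of 2.11 ± 0.104, edgeR adjusted p = 2.47e-16. Ldha rose from 569 and 546 to 1644 and 1637 CPM, a log2 fold change of 1.56 ± 0.106, edgeR adjusted p = 3.43e-13. None of these groups overlapped.

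Pfkp rose from 150.3 and 151 to 634 and 631 CPM, a log2 fold change of 2.07 ± 0.0948, edgeR adjusted p = 5.63e-17, and Pitrm1 rose by 1.37 ± 0.0881, edgeR adjusted p = 9.19e-14. Pfkl rose from 220.1 and 209.7 to 457 and 459 CPM, a log2 fold change of 1.09 ± 0.127, edgeR adjusted p = 1.65e-08, but its log2 fold change was 0.93 with RLE scaling and 0.89 with library size alone. Pkm (0.92), Slc2a1 (0.66), Eno1 (0.56) and Aldoa (0.33) rose by less than the fold threshold, while Eno1b differed by -0.24 with edgeR adjusted p = 0.176. Slc2a3, at 1534 and 1543 CPM, differed by 0.12 with edgeR adjusted p = 0.283, a sign that turned with RLE scaling, library size alone and DESeq2. Of the 15 other enzymes 7 were called higher, among them Gapdh (4.41) and Tpi1 (2.76), and 1, Eno3 (-1.93), lower. Mpc1 (-3.17), Mpc2 (-1.83) and Bsg (-2.03) were called lower, and Slc16a1 (2.20) and Slc16a3 (2.26) higher. Of the 13 HIF-1 targets 8 were called higher and 2 lower. The ESC markers summed to 5452 to 5483 CPM in Dux KD PlaB and 2266 to 2297 CPM in PlaB, and the 2C-like genes to 5.01 to 5.20 and 7179 to 7245 CPM. Of 7 primitive endoderm markers 2 were called higher and 4 lower (25.9 to 27.9 and 32.7 to 37.8 CPM), and of 5 tested trophectoderm markers 2 higher and 3 lower (125 to 131 and 43.0 to 57.5 CPM). Fibroblast markers summed to 26.6 to 28.4 and 9.77 to 12.1 CPM, with 1 of 4 tested called higher. Mitochondrially encoded reads took 2.89% to 2.95% of the Dux KD PlaB libraries, against 1.40% to 1.56% in PlaB. The part of these values in the rise was not tested. These values and the PlaB values against DMSO share the PlaB libraries.

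Dux KD PlaB cells were therefore also set against DMSO. Here 1 of the 10 genes was called lower, Slc2a1, where 4.14% of all tested genes were (and 7.53% higher). It stood at 419 and 422 CPM in Dux KD PlaB and 1037 and 1023 CPM in DMSO, a log2 fold change of -1.29 ± 0.139, edgeR adjusted p = 4.56e-08. At the adjusted p-value alone 3 genes were lower, against 17.1% of all genes, and these were Slc2a1, Slc2a3 (-0.90) and Hk2 (-0.85). Likewise 2 were higher, Pfkl (0.37) and Pkm (0.33), against 17.7%. Leaving out any 1 library took Pfkl and Pkm out and left 3 genes. The other 5 genes did not pass: Aldoa (-0.33), Ldha (-0.14), Eno1 (-0.12), Pgk1 (-0.11) and Pfkp (-0.06).

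The difference between the 2 Dux KD effects was tested in the same model. The effect in PlaB minus that in RA was called higher for 9 of the 10 genes, where 25.5% of all tested genes were (and 26.6% lower), and higher at the adjusted p-value alone for all 10, against 32.3%. Pgk1 had the largest difference, 3.61 ± 0.183, edgeR adjusted p = 9.61e-16. Pfkp followed at 3.03 ± 0.132, edgeR adjusted p = 4.17e-17 and Hk2 at 2.91 ± 0.143, edgeR adjusted p = 5.15e-16. Slc2a1 (2.55), Ldha (2.51), Pfkl (1.84), Pkm (1.84), Eno1 (1.65) and Aldoa (1.47) lay below these. Slc2a3 had the smallest, 0.72 ± 0.143, edgeR adjusted p = 8.42e-05. Pitrm1, which overlaps Pfkp, had a difference of 1.80 ± 0.124, edgeR adjusted p = 6.18e-13, and its part in that of Pfkp was not tested. The knockdown left 0.918 and 0.353 CPM of Duxf3 under RA and 0.0589 and 0 CPM under PlaB, and the treatments also differ in length.

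**Figure D4:**
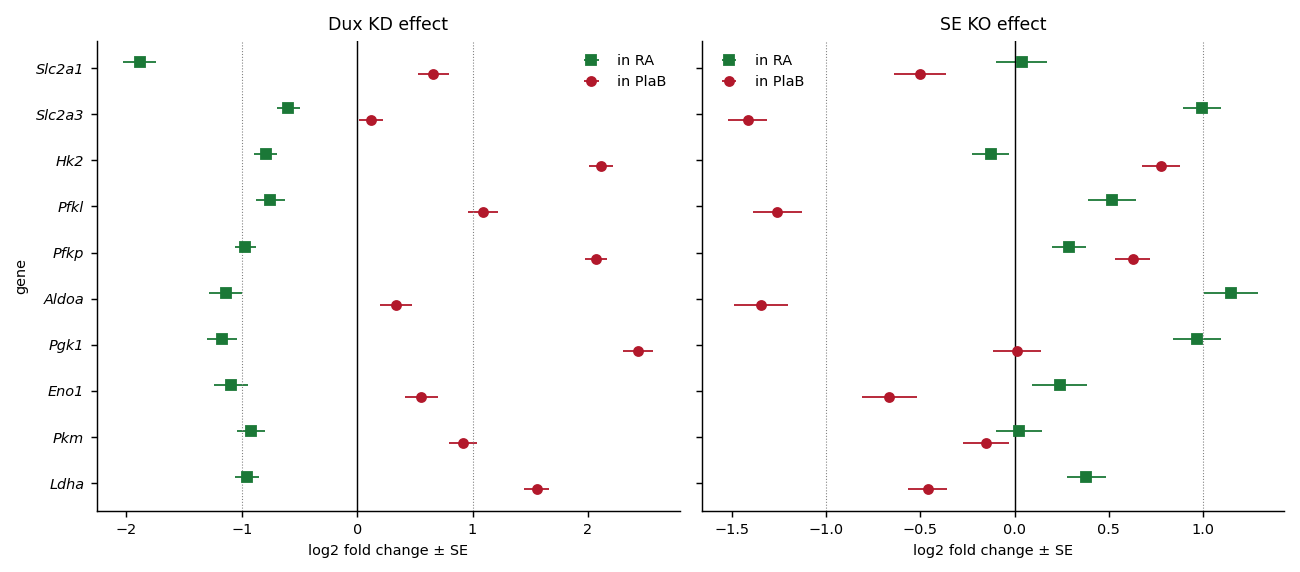
Log2 fold change (± SE from edgeR) of the 10 genes with Dux KD (left) and SE KO (right), under RA (green squares) and under PlaB (red circles). Dotted lines mark a log2 fold change of 1 in either direction and the panels have separate horizontal axes. All 10 genes were lower with Dux KD under RA and 9 were higher with Dux KD under PlaB at the adjusted p-value.

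SE KO under RA raised part of the pathway. Against RA alone, 1 of the 10 genes, Aldoa, was called higher, where 6.57% of all tested genes were (and 11.0% lower), and 6 were higher at the adjusted p-value alone, against 21.3%. The median of the 10 was 0.33, beside -0.035 over all genes. Aldoa rose from 1779 and 1844 CPM in RA to 4115 and 3925 CPM in SE KO RA, a log2 fold change of 1.15 ± 0.142, edgeR adjusted p = 2.29e-07. Slc2a3 rose from 2857 and 3052 to 5776 and 6001 CPM, a log2 fold change of 0.99 ± 0.102, edgeR adjusted p = 9.92e-09. Pgk1 rose from 1252 and 1310.4 to 2488 and 2524 CPM, a log2 fold change of 0.97 ± 0.126, edgeR adjusted p = 5.24e-07. In these 3 genes both SE KO RA libraries stood above every library of the other 12 groups.

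Pfkl rose by 0.52 ± 0.13, edgeR adjusted p = 0.00132, Ldha by 0.38 ± 0.104, edgeR adjusted p = 0.00385 and Pfkp by 0.29 ± 0.0910, edgeR adjusted p = 0.0107, all under the fold threshold. The other 4 genes did not pass the test: Eno1 (0.24), Slc2a1 (0.037), Pkm (0.025) and Hk2 (-0.13). Without the first SE KO RA library, the one with the conflicting genotype label, Aldoa stood at 1.12, Pgk1 at 0.98 and Slc2a3 at 1.02, so that 2 genes were called. Without the second RA library 3 were called. By the adjusted p-value alone, leaving out 1 library left 4 to 6 genes, and Pfkp and Ldha did not pass without the first RA library. Of the 15 other enzymes 2 were called higher, Gapdh (1.23) and the neuronal enolase Eno2 (2.02), and 0 lower. Of the 13 HIF-1 targets 5 were called higher, among them Ankrd37 (2.15) and Vegfa (1.05), and 1, Kdm3a (-1.07), lower. Pfkfb3, which makes the main activator of phosphofructokinase, rose by 1.52 ± 0.153, edgeR adjusted p = 8.13e-09. No gene of the 9 HIF and MYC regulators or of the 7 pentose phosphate genes was called. The ESC markers summed to 1702 to 1712 CPM in SE KO RA and 3441 to 3523 CPM in RA, the 2C-like genes to 51.4 to 54.0 and 466 to 536 CPM, and primitive endoderm markers to 58.3 to 62.8 and 99.7 to 102 CPM. Trophectoderm markers summed to 51.3 to 52.8 and 64.5 to 68.6 CPM, and fibroblast markers to 41.7 to 46.0 and 51.5 to 60.4 CPM. Their part in the rise was not tested.

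At the adjusted p-value alone, SE KO under PlaB lowered 6 of the 10 genes and raised 2. Against PlaB alone, 3 of the 10 genes were called lower, where 26.1% of all tested genes were (and 25.9% higher). This count of calls stands near the share over all genes. Slc2a3 fell from 1418 and 1409 to 457 and 602 CPM, a log2 fold change of -1.42 ± 0.103, edgeR adjusted p = 1.29e-12. Aldoa fell from 1281 and 1247 to 388 and 606 CPM, a log2 fold change of -1.35 ± 0.143, edgeR adjusted p = 2.90e-09. Pfkl fell from 220.1 and 209.7 to 74.0 and 106 CPM, a log2 fold change of -1.26 ± 0.130, edgeR adjusted p = 1.63e-09. Both SE KO PlaB libraries were below both PlaB libraries in all 3, although the SE KO PlaB pair was spread widely. Without the first or the second SE KO PlaB library the log2 fold changes were -1.20 or -1.60 for Slc2a3, -1.03 or -1.68 for Aldoa and -0.995 or -1.51 for Pfkl, whose first value did not reach the fold threshold.

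By the adjusted p-value alone 6 of the 10 were lower, against 36.5% of all genes. Besides the 3 above these were Eno1 (-0.66), Slc2a1 (-0.50) and Ldha (-0.46). The sizes of these 3 moved with 1 library. Without the first SE KO PlaB library Eno1 stood at -0.32, Ldha at -0.24 and Slc2a1 at -0.32, where Slc2a1 no longer passed. Without the second they stood at -1.04, -0.66 and -0.65. Pgk1 (0.012) and Pkm (-0.15) did not pass. Eno1 had the widest replicates, 632 and 1041 CPM, and Eno1b fell by 1.29 ± 0.164, edgeR adjusted p = 8.17e-08. Hk2, at 95.9 and 102 CPM, rose by 0.78 ± 0.102, edgeR adjusted p = 1.37e-07, and Pfkp, at 238 and 228 CPM, rose by 0.63 ± 0.0923, edgeR adjusted p = 9.29e-07, so that 2 were higher, against 35.5%. Pitrm1 rose by 1.18 ± 0.0876, edgeR adjusted p = 1.86e-12. Of the 15 other enzymes 3 were called higher, Gapdh (4.24), Hk1 (2.80) and Pfkm (1.86), and 5 lower, among them Aldoc (-2.74) and Ldhb (-1.75). Of the HIF-1 targets 6 were called higher and 4 lower. Mitochondrially encoded reads took 4.44% to 5.20% of the SE KO PlaB libraries, against 1.40% to 1.56% in PlaB. The ESC markers summed to 4088 to 4289 CPM, against 2266 to 2297, the 2C-like genes to 479.6 to 581, against 7179 to 7245, and the primitive endoderm markers to 127 to 138, against 32.7 to 37.8. Trophectoderm markers summed to 60.7 to 76.9 CPM, against 43.0 to 57.5, and fibroblast markers to 26.6 to 28.7, against 9.77 to 12.1. Their part in these changes was not tested.

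The difference between the 2 SE KO effects was called lower under PlaB than under RA for 3 genes, where 20.7% of all tested genes were (and 28.3% higher). These were Aldoa (-2.50 ± 0.202, edgeR adjusted p = 1.73e-11), Slc2a3 (-2.41 ± 0.145, edgeR adjusted p = 3.51e-14) and Pfkl (-1.78 ± 0.180, edgeR adjusted p = 1.63e-09). Without the first SE KO RA library they stood at -2.44, -2.42 and -1.73. With no fold threshold 7 of the 10 were lower, against 27.6% of all genes, and 2, Hk2 (0.90) and Pfkp (0.34), were higher, against 35.5%. The other genes that were lower were Pgk1 (-0.96), Eno1 (-0.90), Ldha (-0.84) and Slc2a1 (-0.54), and Pkm (-0.17) did not pass. Pitrm1, which overlaps Pfkp, was higher by 1.55 ± 0.123, edgeR adjusted p = 1.15e-11. Without the second SE KO PlaB library 6 genes were called, 3 of them Pgk1, Eno1 and Ldha.

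SE KO under Dux OE gave small changes in 1 direction. Against Dux OE alone, none of the 10 genes was called, where 2.46% of all tested genes were called higher and 3.84% lower. At the adjusted p-value alone 8 of the 10 were lower, against 14.0% of all genes. The median of the 10 was -0.54, beside -0.019 over all genes. Pfkl stood at 180.5 and 219 CPM in SE KO Dux OE and 349.6 and 356 CPM in Dux OE, so that the log2 fold change was -0.82 ± 0.127, edgeR adjusted p = 3.29e-05. Aldoa stood at 823 and 976 and 1566 and 1595 CPM, a log2 fold change of -0.81 ± 0.141, edgeR adjusted p = 1.32e-04. Neither gene overlapped between the groups. Ldha (-0.22 with edgeR adjusted p = 0.127) and Slc2a3 (-0.18 with edgeR adjusted p = 0.217) did not pass. The other genes that were lower were Eno1 (-0.60), Pkm (-0.59), Pgk1 (-0.56), Pfkp (-0.52), Slc2a1 (-0.52) and Hk2 (-0.29). Leaving out 1 library left 5 to 7 of the 8, and Hk2 passed in none of these fits.

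Of 4 tested fibroblast markers 3 were called higher in SE KO Dux OE, Postn, Col1a2 and Col1a1, and the list summed to 113 to 113 CPM, against 44.5 to 47.1 CPM in Dux OE. The 2C-like genes summed to 1344 to 1557 CPM, against 3273 to 3371, and 7 of 8 were called lower. ESC markers summed to 4582 to 4673 CPM, against 3801 to 3861, and trophectoderm markers to 89.0 to 93.6, against 174 to 181, with none called. Primitive endoderm markers summed to 11.4 to 14.9 CPM, against 6.21 to 8.23, with 2 of 7 called higher. The part of these markers in the lower values of the glycolysis genes was not tested.

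Dux OE called none of the 10 genes against untreated ESCs, where 7.38% of all tested genes were called higher and 2.12% lower. By the adjusted p-value alone 2 were higher, Pfkl (0.37) and Pgk1 (0.38), against 14.7% of all genes. Likewise 2 were lower, Hk2 (-0.45) and Slc2a1 (-0.41), against 12.8%. Pgk1 stood at 1206 and 1204 CPM in Dux OE and 918 and 939.6 CPM in ESC, and Hk2 at 194 and 199 and 263 and 275 CPM, with no overlap in either. The other genes did not pass: Aldoa (0.13), Pkm (0.12), Slc2a3 (0.095), Eno1 (0.053), Pfkp (0.0042) and Ldha (-0.15). Leaving out any 1 of the libraries left Hk2 alone or, without the second Dux OE library, Hk2 and Slc2a1. Against DMSO instead of ESC, Slc2a1 stood at -1.53 and Hk2 at -1.19 and both were called lower, while Pgk1 turned to -0.44 and Slc2a3 to -0.82. None of the 15 other enzymes was called against ESC, and Pfkfb3 fell by 1.48 ± 0.176, edgeR adjusted p = 2.54e-07.

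In the libraries labelled DuxR70A OE none of the 10 was called against ESC either, where 10.2% of all tested genes were called higher and 6.72% lower. With no fold threshold 5 were higher, against 21.6%, and 1, Pkm, lower, against 23.0%. Pgk1 stood at 1777 and 1598 CPM, above both ESC libraries, a log2 fold change of 0.86 ± 0.126, edgeR adjusted p = 2.81e-06. Pfkp stood at 607 and 606 CPM against 369 and 395 CPM in ESC, a log2 fold change of 0.67 ± 0.0912, edgeR adjusted p = 9.96e-07, and Pitrm1 differed by 0.19 with edgeR adjusted p = 0.0764. Pkm stood at 3575 and 2964 CPM, below both ESC libraries, a log2 fold change of -0.41 ± 0.121, edgeR adjusted p = 0.00744. Also higher were Slc2a3 (0.49), Pfkl (0.43) and Hk2 (0.36), while Slc2a1 (0.24), Aldoa (0.18), Ldha (0.042) and Eno1 (-0.23) did not pass. Leaving out 1 library left 4 to 6 genes. Against DMSO, Pgk1 stood at 0.046, Pfkp at -0.12 and Slc2a1 at -0.88. With library size alone, the log2 fold change of Pgk1 was 1.09 and the share of all calls that were higher went from 60.4% to 77.6%. On that scaling Pkm stood at -0.17 and no longer passed the adjusted p-value. Slc2a1 (0.47), Aldoa (0.41) and Ldha (0.28) then passed as higher.

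Set against Dux OE, the libraries labelled DuxR70A OE again had none of the 10 called, where 6.11% of all tested genes were called higher and 7.51% lower. At the adjusted p-value alone 5 were higher, against 17.3%, and 1, Pkm (-0.53), lower, against 21.4%. Hk2 stood at 348 and 344 CPM, above 194 and 199 CPM in Dux OE, so that the log2 fold change was 0.82 ± 0.0984, edgeR adjusted p = 2.37e-07. Slc2a1 stood at 586 and 533 and 336 and 379 CPM, a log2 fold change of 0.65 ± 0.138, edgeR adjusted p = 4.81e-04. Neither gene overlapped between the groups. Also higher were Pfkp (0.66), Pgk1 (0.49) and Slc2a3 (0.39), while Ldha (0.19), Pfkl (0.064), Aldoa (0.054) and Eno1 (-0.28) did not pass. With library size alone Hk2 reached 1.01 and was called, and the share of all calls that were higher went from 44.8% to 58.9%. Of the 13 HIF-1 targets 7 were called higher than in Dux OE, among them Bnip3 (2.26) and Vegfa (1.86), and 1, P4ha2 (-1.05), lower.

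Zscan4 OE called none of the 10 genes against ESC, where 7.25% of all tested genes were called higher and 4.39% lower. By the adjusted p-value alone 4 were lower, against 19.6% of all genes. Eno1 stood at 1382 and 1372 CPM in Zscan4 OE and 2099.7 and 2226 CPM in ESC, a log2 fold change of -0.65 ± 0.146, edgeR adjusted p = 7.49e-04, and Eno1b fell by 0.71 ± 0.162, edgeR adjusted p = 8.80e-04. Pkm stood at 2859 and 2858 and 4264 and 4410.1 CPM, a log2 fold change of -0.60 ± 0.122, edgeR adjusted p = 2.59e-04. Both genes were lower in both Zscan4 OE libraries than in either ESC library. Aldoa (-0.40) and Hk2 (-0.34) were the other 2. Leaving out 1 library left 2 to 3 of the 4, and Aldoa passed in none of these fits. Slc2a3 (0.20), Slc2a1 (0.15), Pgk1 (0.032), Pfkp (-0.06), Ldha (-0.093) and Pfkl (-0.15) did not pass. Of the 15 other enzymes 4 were called lower, among them Ldhb (-1.45) and Gapdh (-1.02), and 2 higher. Against DMSO, Hk2 stood at -1.08 and was called, and Slc2a1, Slc2a3 and Pgk1 turned to -0.97, -0.71 and -0.78. With library size alone the share of all calls that were higher went from 62.3% to 76.6%. On that scaling Eno1 (-0.50) and Pkm (-0.45) still passed the adjusted p-value as lower. Aldoa (-0.24) and Hk2 (-0.19) did not, and Slc2a3 (0.36) passed as higher.

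Dux KD under Zscan4 OE called none of the 10 genes against Zscan4 OE alone, where 5.78% of all tested genes were called higher and 5.35% lower. With no fold threshold 2 were lower, against 16.7%, and these were the transporters. Slc2a1 stood at 341 and 200.3 CPM in Dux KD Zscan4 OE and 515 and 535 CPM in Zscan4 OE, a log2 fold change of -0.96 ± 0.139, edgeR adjusted p = 5.90e-06. Slc2a3 stood at 1209 and 951 and 1726 and 1769.8 CPM, a log2 fold change of -0.69 ± 0.102, edgeR adjusted p = 6.28e-06. Neither overlapped between the groups, but the replicates of Slc2a1 in Dux KD Zscan4 OE differed 1.70-fold. Without the first of them its log2 fold change was -1.41 and without the second -0.63. Pfkp, at 557 and 409 CPM, was higher by 0.40 ± 0.0912, edgeR adjusted p = 0.00123, as 1 of the 10, against 16.0% of all genes, and Pitrm1 differed by -0.28. Without the first Dux KD Zscan4 OE library Pfkp stood at 0.14 and did not pass, while Hk2, Ldha, Pfkl and Pgk1 did, and without the second at 0.60. The other genes did not pass: Aldoa (0.014), Eno1 (-0.0018), Pkm (0.0031), Hk2 (-0.15), Ldha (-0.16), Pfkl (-0.20) and Pgk1 (-0.23). The 2C-like genes, among them Zscan4c and Zscan4d, summed to 2.47 to 3.31 CPM in Dux KD Zscan4 OE. They summed to 248 to 255 CPM in Zscan4 OE and 19.6 to 23.0 CPM in ESC. The counts thus do not show overexpression of Zscan4c or Zscan4d in Dux KD Zscan4 OE, and these libraries are named by their label only. The part of this in the differences was not tested. In the 6 comparisons where edgeR called none of the 10 genes, DESeq2 also called 0. The genes with an unadjusted edgeR p-value under 0.05 then numbered 4 in Zscan4 OE and 4 in Dux OE against ESC, and 6 in DuxR70A OE against ESC and 6 against Dux OE. They numbered 3 in Dux KD Zscan4 OE and 9 in SE KO Dux OE.

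**Figure D5:**
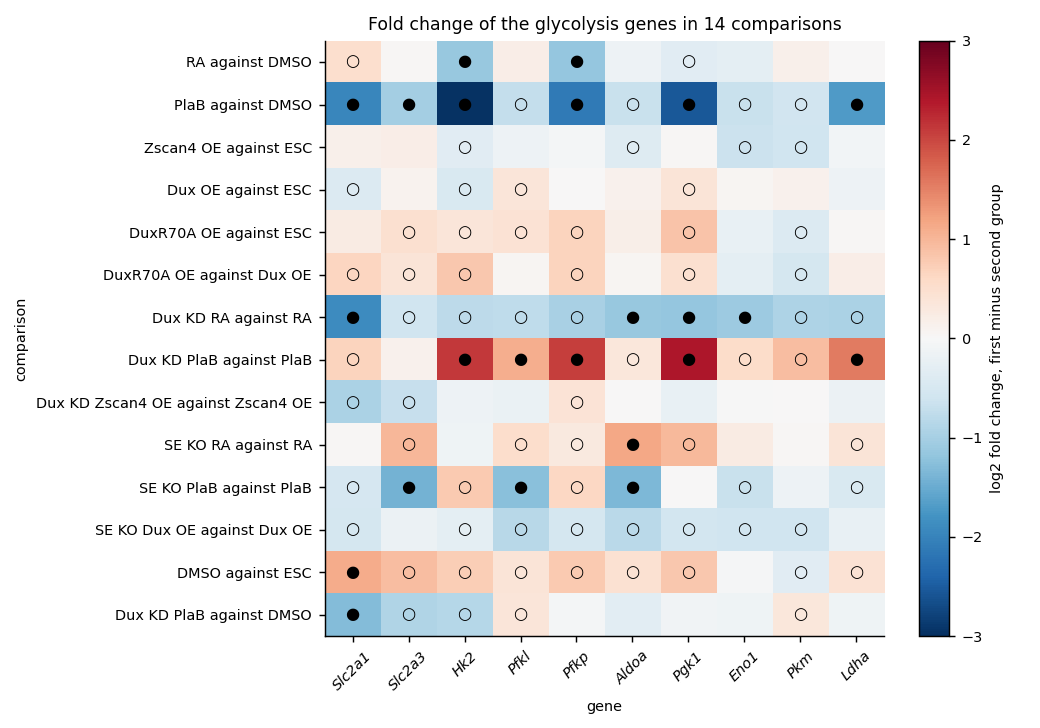
Log2 fold change (first minus second group, colour scale from -3 to 3) of the 10 genes in the 14 comparisons between 2 groups. Filled circles mark called genes, open circles those past the adjusted p-value alone. The rows of PlaB against DMSO and Dux KD RA against RA are lower throughout, with 6 and 4 filled circles, and that of Dux KD PlaB against PlaB has 5 filled circles on the higher side.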

How the data were processed

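RNA-seq libraries were counted per gene by the authors, and the deposited values are raw counts in 1 table for all 26 libraries. The submitters' processing notes name FastQC, Trimmomatic, STAR, featureCounts, DESeq2 and mm10. Versions, the strand setting and the rule for reads that map to several places are not given in the sources used here.

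Groups came from the sample labels. Genes passed the default low-count filter of edgeR 4.0.16 (R 4.3.3), libraries were scaled by TMM, and 1 quasi-likelihood model was fitted over all 13 groups. P-values were adjusted by the Benjamini-Hochberg method over all 20953 genes and a call needed an adjusted p-value under 0.05 and a log2 fold change of 1 or more in either direction. The model was tested on simulated data. The members and lists were chosen with earlier results of these data known. All 10 members are named in each comparison, and other genes are named where called, where they mark a cell type, where they share sequence with a member, or as the 5 closest profiles. Alternatives were DESeq2 1.42.0, RLE or no scaling, no filter, only the compared groups, a replicate block, the other control, no fold threshold and leaving out each replicate. Replicate numbers did not pair the samples, since correlations of same-numbered deviations ranged from -0.0473 to 0.0237. Promoter windows came from RefSeq (GRCm38.p6), gene models from GENCODE M21.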

Additional observations from a re-analysis of the deposited data

Results flagged for a closer look

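The effect of Dux KD differed between PlaB and RA for 9 of the 10 genes by the interaction test in edgeR, where 25.5% of all tested genes were called higher and 26.6% lower. The effect in PlaB minus that in RA, on the log2 scale, was 3.61 for Pgk1, 3.03 for Pfkp, 2.91 for Hk2, 2.55 for Slc2a1 and 2.51 for Ldha. It was 1.84 for Pfkl, 1.84 for Pkm, 1.65 for Eno1 and 1.47 for Aldoa. For Hk2, both Dux KD libraries were lower than both RA libraries under RA and higher than both PlaB libraries under PlaB. All genes named here remained called when any 1 library was left out.

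The effect of SE KO differed in the same way of testing for 3 genes, where 20.7% of all tested genes were called lower and 28.3% higher, so that a count of 3 lower of 10 stands near the share over all genes. The effect in PlaB minus that in RA was -2.50 for Aldoa, -2.41 for Slc2a3 and -1.78 for Pfkl. The SE KO RA side includes the library whose genotype label conflicts with its title.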

How the results depend on the processing

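The number of the 10 genes called kept its size within 1.5 times under most alternatives. Without a fold threshold the counts were 4 (RA against DMSO), 10 (PlaB against DMSO), 4 (Zscan4 OE against ESC), 4 (Dux OE against ESC), 6 (DuxR70A OE against ESC), 6 (DuxR70A OE against Dux OE), 10 (Dux KD RA), 9 (Dux KD PlaB), 3 (Dux KD Zscan4 OE), 6 (SE KO RA), 8 (SE KO PlaB), 8 (SE KO Dux OE), 9 (DMSO against ESC), 5 (Dux KD PlaB against DMSO) and 9 (the SE KO difference between PlaB and RA). Scaled by library size alone they were 0 (RA), 1 (DuxR70A OE against ESC), 1 (DuxR70A OE against Dux OE) and 1 (Dux KD Zscan4 OE). With the other control they were 1 (RA), 1 (Zscan4 OE) and 2 (Dux OE). Without the low-count filter they were 1 (Dux KD Zscan4 OE) and 3 (SE KO RA), and with only the compared groups 2 (SE KO RA). DESeq2 and RLE each gave 5 for the SE KO difference. Leaving out a replicate gave 4 to 7 for Dux KD RA (7 without RA replicate 1), 0 to 1 for Dux KD Zscan4 OE, 1 to 3 for SE KO RA, 2 to 4 for SE KO PlaB and 3 to 6 for the SE KO difference. A replicate block changed no count, for instance 6 in PlaB against DMSO. The cause of these shifts was not tested.

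Of 1730 recomputed values for 160 gene results, 1672 kept their direction and side of the threshold, or changed sign with neither value past it (53), 13 fell below the threshold, 31 rose past it and 14 reversed. With DMSO as control, Zscan4 OE values were -0.97 (Slc2a1), -0.71 (Slc2a3) and -0.78 (Pgk1), Dux OE values -0.82 (Slc2a3), -0.0071 (Pfkl), -0.78 (Pfkp) and -0.44 (Pgk1), and DuxR70A OE values -0.88 (Slc2a1), -0.43 (Slc2a3), -0.37 (Hk2), -0.12 (Pfkp) and -0.40 (Ldha). With ESC as control, Pgk1 in RA was 0.46. Pgk1 in SE KO PlaB was 0.28 without SE KO PlaB replicate 1 and -0.26 without replicate 2. With 2 replicates a group, only spread between these libraries is measured.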

Other observations

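Of 6 tested genes of gluconeogenesis, the pathway that opposes glycolysis, 2 were called in each direction in PlaB against DMSO, near the 32.3% higher and 26.6% lower of all tested genes. Fbp1, a fructose bisphosphatase, stood at 14.2 and 13.5 CPM in PlaB and had no read in either DMSO library. Its muscle-type form Fbp2 stood at 38.3 and 39.4 CPM in PlaB and 0.170 and 0.329 CPM in DMSO. Pck2, the mitochondrial phosphoenolpyruvate carboxykinase, fell by 2.69 ± 0.142, edgeR adjusted p = 1.01e-15, and the pyruvate carboxylase gene Pcx fell by 1.95 ± 0.138, edgeR adjusted p = 5.72e-13.

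In Dux KD RA against RA, 3 of the 6 were called higher and 1, G6pc3, lower, where 6.41% of all tested genes were called higher and 4.53% lower. G6pc3, a glucose-6-phosphatase, had a log2 fold change of -1.16 ± 0.155, edgeR adjusted p = 1.47e-06. Fbp1 stood at 7.69 and 7.0 CPM in Dux KD RA and 1.36 and 0.791 CPM in RA, and rose by 2.75 ± 0.343, edgeR adjusted p = 6.48e-07. Fbp2 stood at 23.2 and 22.0 and 5.99 and 6.75 CPM, and rose by 1.83 ± 0.241, edgeR adjusted p = 1.16e-06. Pck1 held only 9 and 12 reads in Dux KD RA and 2 and 2 reads in RA.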
